A study of Mus musculus with 10 samples.

Results

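The genes described here code for 10 cartilage matrix components and secreted cartilage proteins that are not collagens: *Acan*, *Comp*, *Matn1*, *Matn3*, *Matn4*, *Hapln1*, *Cnmd*, *Snorc*, *Chad* and *Cytl1*. They were chosen by name from the 53465 genes of the count table, and each of the 10 passed the filter on low counts that left 16426 genes for testing. Bulk RNA-seq was performed on whole pinna prominences, the forming outer ear, from mouse embryos at E14.5. The groups were 5 wild-type (WT) embryos and 5 *mEC1dup/dup* embryos, labelled Knock-In (KI), in which CRISPR/Cas9 insertion placed a second copy of the *Hmx1* enhancer mEC1 on each allele, in mice of the C57BL6 strain. The duplication is present in all cells of the embryo, and the pinna prominence is a mixture that holds fibroblasts, chondrocytes, muscle, epithelium and vessels. In such bulk samples, fewer cells of a type and less RNA per cell cannot be told apart.

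Cartilage matrix is built by chondrocytes around fibrils of collagens II, IX and XI. Aggrecan (*Acan*) binds hyaluronan in a complex with link protein (*Hapln1*) and holds water through its chondroitin sulfate chains. Matrilins (*Matn1*, *Matn3*, *Matn4*) and cartilage oligomeric matrix protein (*Comp*, also thrombospondin 5) are multimeric adaptors that connect fibrils with other matrix proteins. Chondromodulin (*Cnmd*) is a membrane glycoprotein of avascular cartilage whose cleaved form inhibits vessel growth, *Snorc* codes for a small transmembrane chondroitin sulfate proteoglycan, *Chad* for the leucine-rich repeat protein chondroadherin, and *Cytl1* for a secreted cytokine-like protein of cartilage. In the developing ear these products belong to the auricular cartilage that shapes the pinna. Mutations of *COMP* and *MATN3* are known in human skeletal dysplasias.

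Library depth was 17461544 to 18462073 counts, and a sharing of reads between genes is a limit for some of the 10 because the use of strand in counting is not stated. *Hmx1*, the gene under mEC1, was at 21.7 to 29.1 CPM (counts scaled to a common library size by the TMM method) in WT and at 52.8 to 77.5 CPM in *mEC1dup/dup*, which fits the genotype labels. The embryos differed in more than genotype. *Xist*, transcribed from the inactive X chromosome of females, was at 2 to 5 counts in each WT library, at 2096 to 19040 counts in 4 *mEC1dup/dup* libraries and at 0 in the remaining one (replicate 5). The embryonic share of globin counts, which falls as blood formation matures, averaged 21.3% ± 2.07 in WT and 34.3% ± 1.22 in *mEC1dup/dup* (SD, n = 5 each), without overlap. One *mEC1dup/dup* library (replicate 1) stood apart in cartilage RNA: its 6 chondrocyte marker genes summed to 2702.5 CPM, against 5850 CPM or more in the other *mEC1dup/dup* libraries and 5883 to 9556 CPM in WT. Results are therefore also given without it.

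The 10 genes together took 0.132% to 0.222% of all counts in WT libraries and 0.0527% to 0.161% in *mEC1dup/dup* libraries. Per kb of exonic length, the WT means of CPM were in the order *Matn1* (177), *Cnmd* (141), *Cytl1* (46.0), *Hapln1* (43.6), *Matn4* (34.7), *Acan* (28.1), *Matn3* (12.7), *Chad* (5.61), *Comp* (4.69) and *Snorc* (3.29). In this order, the ranges of the 5 WT embryos were apart for *Cnmd* and *Cytl1*, for *Acan* and *Matn3*, and for *Matn3* and *Chad*, and overlapped for the other neighbours. *Comp* and *Snorc* were thus the genes with the least RNA per length of the 10, and matrilin-1 RNA was the most abundant.

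*Comp* and *Snorc* fell in *mEC1dup/dup*, and the other 8 genes did not pass the test. Of the 10 genes, 2 were called lower and 0 higher, at an adjusted p of at most 0.05 in edgeR's quasi-likelihood test with an average log2 CPM of at least 1. Of all tested genes, 1.81% were called lower and 0.834% higher. The fitted log2 fold change was negative for all 10 genes, with a median of -0.50 against -0.00415 over all tested genes. Without *mEC1dup/dup* replicate 1 the median of the 10 was -0.32, and 9 of the 10 values were negative, since *Matn4* turned to 0.042. At an unadjusted p of at most 0.05, 6 of the 10 were lower and 0 higher, both with and without that library, beside 9.08% of all tested genes lower and 7.1% higher over all libraries. The count of 2 lower genes, *Comp* and *Snorc*, was the same with the Wald test of DESeq2 and with limma-voom, with or without sample quality weights.

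**Figure D1:**
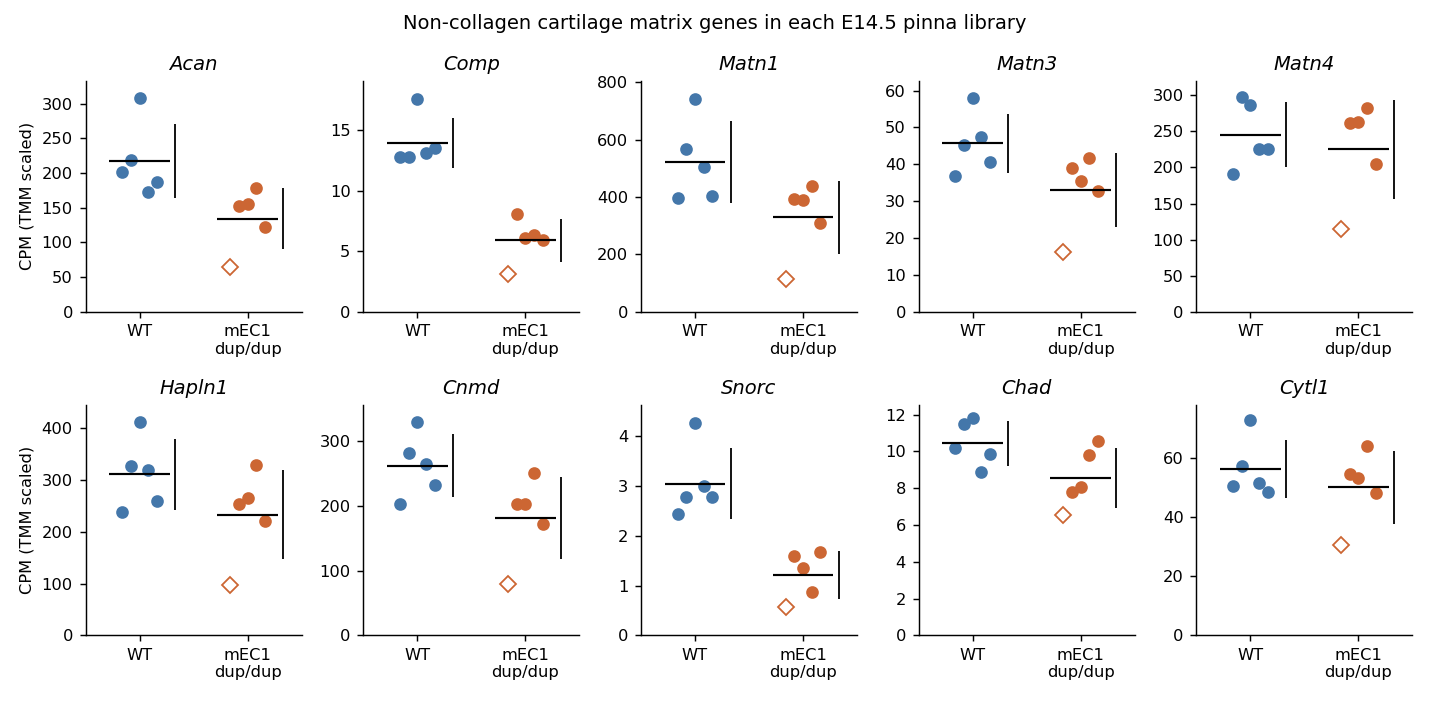
CPM (linear axis, scaled by TMM) of the 10 genes in each library, WT in blue and *mEC1dup/dup* in orange, with the mean as a horizontal line, the SD as a vertical line and *mEC1dup/dup* replicate 1 as an open diamond. The groups are apart for *Comp* and *Snorc*, and the open diamond is the lowest point of each panel.

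*Comp* (ENSMUSG00000031849, GRCm39 chr8:70826192-70834716, plus strand, 19 exons) was at 12.8, 12.8, 17.6, 13.1 and 13.5 CPM in WT replicates 1 to 5 and at 3.14, 8.10, 6.08, 6.36 and 5.90 CPM in *mEC1dup/dup* replicates 1 to 5. All 5 *mEC1dup/dup* embryos were below all 5 WT embryos, which was the case for 2.75% of tested genes, and *Snorc* was the other gene of the 10 with such a gap. None of the 10 had all *mEC1dup/dup* embryos above WT, beside 2.33% of tested genes. The means were 14.0 ± 2.06 CPM and 5.92 ± 1.78 CPM (SD, n = 5 each), and the log2 fold change was -1.24 (SE 0.19, 95% interval -1.65 to -0.83, adjusted p = 0.0064 in edgeR). Without *mEC1dup/dup* replicate 1 it was -1.08 (SE 0.13, adjusted p = 0.00386 in edgeR), and the calls over the 10 genes were again *Comp* and *Snorc*, beside 2.06% of all genes called lower and 0.807% higher in that fit. The 222 to 314 counts per WT library and 55 to 147 per *mEC1dup/dup* library kept counting error small beside the difference. An antisense lncRNA, *Gm51533*, covers 4.83% of the exonic bases of *Comp* and has no entry in the table used here.

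*Snorc* (ENSMUSG00000026258, GRCm39 chr1:87397772-87403204, plus strand) was close to the lowest level that could be called. Its counts were 42, 50, 76, 54 and 50 across WT replicates 1 to 5 and 10, 29, 25, 16 and 31 across *mEC1dup/dup* replicates 1 to 5, so its groups did not overlap either. The means were 3.04 ± 0.71 CPM and 1.21 ± 0.48 CPM (SD, n = 5 each). The log2 fold change was -1.32 (SE 0.27, 95% interval -1.91 to -0.73, adjusted p = 0.0229 in edgeR). It was -1.14 (adjusted p = 0.0274 in edgeR) without *mEC1dup/dup* replicate 1. The call was lost when any one of WT replicate 3, *mEC1dup/dup* replicate 3 or *mEC1dup/dup* replicate 4 was left out, with log2 fold changes of -1.17, -1.36 and -1.22 and adjusted p of 0.0557, 0.0627 and 0.0573 in edgeR. 

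The differences of *Comp* and *Snorc* between genotypes cannot be told apart from the difference in globin share, since that share separated the groups completely. With the share as a covariate, no gene of the whole table was called in edgeR. Of 16426 genes, 793 had an unadjusted p under 0.05 in that edgeR fit, no more than chance would give. The log2 fold changes were -1.05 for *Comp* (SE 0.85, adjusted p = 0.898 in edgeR) and -1.01 for *Snorc* (SE 1.2, adjusted p = 0.929 in edgeR). When the log2 CPM of *Xist* entered the fit instead, *Comp* was at -1.23 (SE 0.33, adjusted p = 0.333) and *Snorc* at -0.99 (SE 0.43, adjusted p = 0.506), and 3 genes of the whole table were called. In *mEC1dup/dup* replicate 5, the library with 0 *Xist* counts, *Comp* was at 5.90 CPM and *Snorc* at 1.68 CPM, both below each of the 5 WT libraries. These are values of a single library, and the part of sex in the differences of *Comp* and *Snorc* was not tested.

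The genes of the proteoglycan aggregate did not pass the test. *Acan* (GRCm39 chr7:78702964-78764847) was at 201, 219, 307, 172 and 187 CPM in WT replicates 1 to 5 and at 64.5, 152, 155, 179 and 121 CPM in *mEC1dup/dup* replicates 1 to 5. Of the *mEC1dup/dup* embryos, 4 were below all WT embryos, and replicate 4 lay inside the WT range. The log2 fold change was -0.69 (SE 0.22, adjusted p = 0.128 in edgeR), and -0.52 without *mEC1dup/dup* replicate 1. *Hapln1* (GRCm39 chr13:89686581-89759950) was at 311 ± 68.3 CPM in WT and 233 ± 85.4 CPM in *mEC1dup/dup* (SD, n = 5 each). Its log2 fold change was -0.42 (95% interval -0.94 to 0.11, adjusted p = 0.446 in edgeR), with 2 *mEC1dup/dup* embryos below all WT embryos, and -0.22 without *mEC1dup/dup* replicate 1. The antisense lncRNA *Gm26633* shares 4.89% of the exonic bases of *Acan* and had 3 to 18 counts per library.

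None of the 3 matrilin genes passed the test. *Matn1* (GRCm39 chr4:130670216-130682787) was at 396, 566, 742, 505 and 403 CPM in WT replicates 1 to 5 and at 113, 393, 389, 437 and 309 CPM in *mEC1dup/dup* replicates 1 to 5, so that 4 *mEC1dup/dup* embryos were below all WT embryos, 2 of them by a few CPM. Its log2 fold change was -0.67 (SE 0.28, adjusted p = 0.259 in edgeR). It was -0.45 without *mEC1dup/dup* replicate 1. *Matn3* (GRCm39 chr12:8997929-9022028) gave -0.47 (SE 0.20, adjusted p = 0.262 in edgeR), and -0.29 without that library. *Matn4* (GRCm39 chr2:164230090-164247080, minus strand) gave -0.12 (95% interval -0.56 to 0.31, adjusted p = 0.817 in edgeR), and its value turned to 0.042 without that library. *Matn4* shares 9.06% of its exonic bases with the antisense gene *Rbpjl* (10 to 60 counts) and 3.96% with *Slpi* (66 to 193 counts), few beside its own 2010 to 5390 counts.

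The remaining genes were the antiangiogenic *Cnmd* and the adhesion and signalling proteins *Chad* and *Cytl1*. *Cnmd* (GRCm39 chr14:79875120-79899615, minus strand) was at 262 ± 48.7 CPM in WT and 181 ± 63.6 CPM in *mEC1dup/dup* (SD, n = 5 each). This gave a log2 fold change of -0.53 (SE 0.23, adjusted p = 0.265 in edgeR). *Chad* (GRCm39 chr11:94455696-94459953) was at 10.4 ± 1.2 and 8.54 ± 1.63 CPM, a log2 fold change of -0.29 (SE 0.13, adjusted p = 0.314 in edgeR). *Cytl1* (GRCm39 chr5:37892863-37897329) was at 56.1 ± 9.85 and 50.0 ± 12.4 CPM, a log2 fold change of -0.17 (SE 0.16, adjusted p = 0.679 in edgeR). These values were -0.34 for *Cnmd*, -0.20 for *Chad* and -0.031 for *Cytl1* without *mEC1dup/dup* replicate 1. The groups of these 3 genes overlapped, with 3, 3 and 2 *mEC1dup/dup* embryos below all WT embryos.

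**Figure D2:**
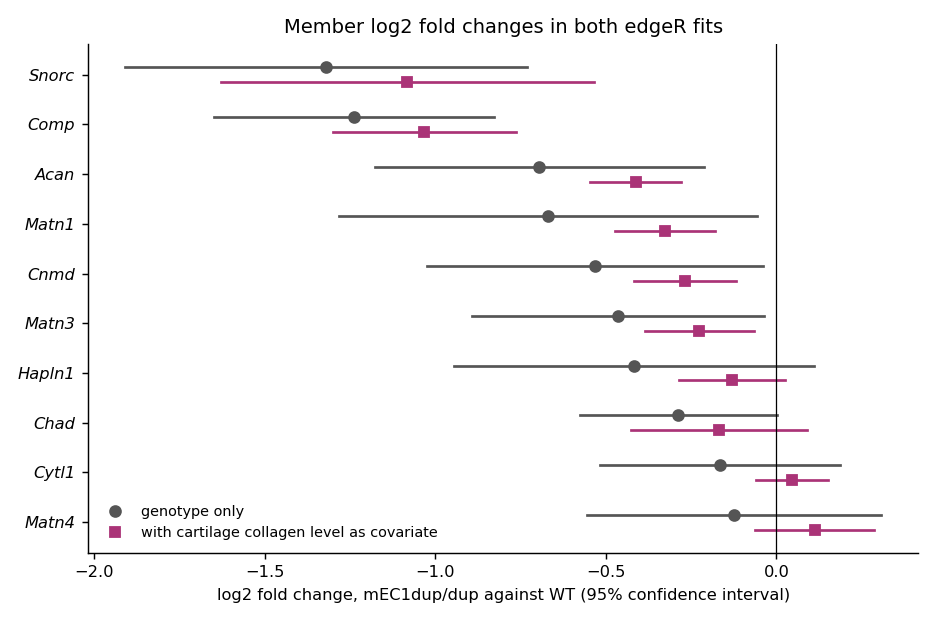
Log2 fold changes of the 10 genes between *mEC1dup/dup* and WT with 95% confidence intervals from edgeR, for the fit on genotype alone (grey circles) and with the cartilage collagen level of each library as a covariate (purple squares). *Snorc* moves from -1.32 to -1.08 and *Comp* from -1.24 to -1.03 between the fits, the intervals of *Acan* and *Matn1* narrow around -0.41 and -0.33, and *Matn4* and *Cytl1* move to 0.11 and 0.046.

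Much of the spread between embryos was shared by these genes. *mEC1dup/dup* replicate 1 was the lowest library for each of the 10, at 29.7% of the mean of the other 4 *mEC1dup/dup* libraries for *Matn1*, 42.5% for *Acan*, 47.5% for *Comp*, 55.6% for *Cytl1* and 72.0% for *Chad*. Deviations of log2 CPM from the genotype means had a median Pearson's r of 0.909 over the 45 pairs of genes (0.504 to 0.997, 10 libraries, which share depth and scaling). Without *mEC1dup/dup* replicate 1 the median r was 0.633 (-0.0586 to 0.989, 9 libraries). *Cnmd* and *Cytl1* then still moved with the others, with median r of 0.892 and 0.888 to the other 9 genes. So did *Matn1* (0.870), *Hapln1* (0.842), *Matn3* (0.780), *Matn4* (0.775) and *Acan* (0.747), whereas *Comp* was at 0.558, *Chad* at 0.241 and *Snorc* at 0.10. By this measure, the genes whose deviations over 10 libraries were most like the mean of the 9 genes other than *Comp* were *Col9a3* (r = 0.993), *Col9a1* (0.993), *Susd5* (0.993), *Col9a2* (0.990) and *Sorbs2* (0.988). Without *mEC1dup/dup* replicate 1 they were *Col9a3* (0.976), *Col9a1* (0.973), *Tmem132d* (0.970), *Hnrnpdl* (0.968) and *Susd5* (0.968), over 9 libraries. For *Comp* alone, the closest genes over 10 libraries were *Zfp365* (0.954), *Ptpru* (0.942), *Rgl3* (0.935), *Lbp* (0.932) and *Fam20b* (0.931). None of these 5 was among the closest 5 once *mEC1dup/dup* replicate 1 was left out. Their r to *Comp* was then 0.711 (*Rgl3*) to 0.836 (*Zfp365*) over 9 libraries, and among the 10 genes *Comp* was closest to *Matn3* (0.697), *Acan* (0.633) and *Cytl1* (0.617).

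The level of cartilage collagen RNA in each library was then used as a yardstick, to ask how the 10 genes stood against the collagen output of the same embryo. It is the mean log2 CPM of *Col2a1*, *Col9a1*, *Col9a2*, *Col9a3* and *Col11a2*, and was 9.84, 10.1, 10.5, 9.85 and 9.78 in WT replicates 1 to 5 and 8.61, 9.92, 9.88, 10.2 and 9.75 in *mEC1dup/dup* replicates 1 to 5. Except in replicate 1, the *mEC1dup/dup* libraries were within the WT range or just under it. With this level as a covariate in edgeR, 4 of the 10 genes were called lower (*Acan*, *Comp*, *Matn1* and *Snorc*) and 0 higher, beside 2.21% of all tested genes called lower. The log2 fold changes were -0.41 for *Acan* (SE 0.06, adjusted p = 0.00511), -1.03 for *Comp* (SE 0.12, adjusted p = 0.00239), -0.33 for *Matn1* (SE 0.07, adjusted p = 0.0242) and -1.08 for *Snorc* (SE 0.25, adjusted p = 0.0377). The same 4 were called when *mEC1dup/dup* replicate 1 was also left out, with adjusted p of 0.00601, 0.00263, 0.0274 and 0.0407 in edgeR. *Cnmd* was at -0.27 (SE 0.07, adjusted p = 0.0596) and *Matn3* at -0.23 (SE 0.07, adjusted p = 0.134), neither past the test. *Hapln1* (-0.13), *Chad* (-0.17), *Cytl1* (0.046) and *Matn4* (0.11) had intervals that included 0. With the globin share as covariate instead of the collagen level, *Acan* was at 0.11 (SE 1.03) and *Matn1* at -0.47 (SE 1.34), neither called. The differences against the collagen level cannot be told apart from that in globin share, and the part of sex was not tested.

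**Figure D3:**
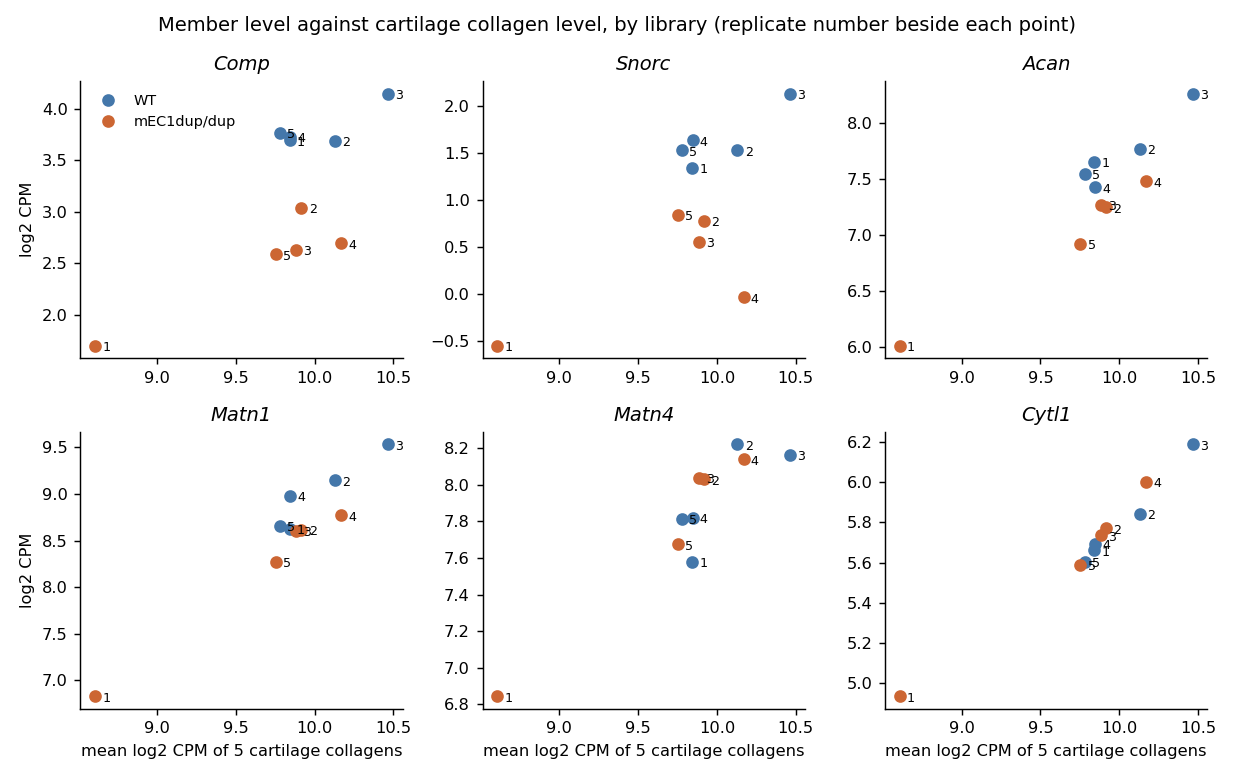
Log2 CPM of 6 of the genes against the mean log2 CPM of 5 cartilage collagens, 1 point per library with its replicate number, WT in blue and *mEC1dup/dup* in orange. In the panels of *Comp*, *Snorc* and *Acan* the orange points lie below the blue points at a like collagen level, and in those of *Matn4* and *Cytl1* they do not.

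The same was seen embryo by embryo as the log2 CPM of a gene minus the collagen level. For *Comp* this difference was -6.15, -6.44, -6.32, -6.12 and -6.01 in WT replicates 1 to 5 and -6.90, -6.88, -7.25, -7.47 and -7.16 in *mEC1dup/dup* replicates 1 to 5. The groups did not overlap, and the difference of means was -0.93 (two-sided exact permutation p = 0.00794, the smallest that 5 against 5 libraries can give). *Comp* was chosen for this test with its change in these data already known, so the p is not independent of that choice. For *Acan* the WT values were -2.19, -2.36, -2.20, -2.42 and -2.23 and the *mEC1dup/dup* values -2.59, -2.67, -2.61, -2.69 and -2.83, a difference of -0.40. All 5 *mEC1dup/dup* embryos were also below all 5 WT embryos for *Snorc* (-0.97), *Matn1* (-0.42) and *Cnmd* (-0.26). This non-overlap was found for 0.0974% of all tested genes. Without *mEC1dup/dup* replicate 1 the same 5 of the 10 were below all WT embryos, beside 0.737% of all tested genes. These shares are given as a description only. The low collagen level of replicate 1 (8.61) lifts that library on this scale for genes that do not follow the collagens. The shares are therefore not rates expected by chance for genes that do follow them. For *Matn4* (0.17) and *Cytl1* (0.16) the difference had the opposite sign, with 3 of 5 *mEC1dup/dup* embryos above all WT embryos for each. Without replicate 1 it was 0.13 for *Matn4* and 0.059 for *Cytl1*, for which the other such embryos, at -4.145 and -4.148, were just above the highest WT embryo at -4.152. No gene of the 10 had all 5 *mEC1dup/dup* embryos above WT on this scale, beside 0.317% of all tested genes. *Chad* (0.05), *Hapln1* (-0.15) and *Matn3* (-0.17) overlapped, and *Chad* turned to -0.13 without replicate 1. Whether any gene differed from another in its change was not tested. The differences on this scale, too, cannot be told apart from that in globin share, and the part of sex was not tested.

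**Figure D4:**
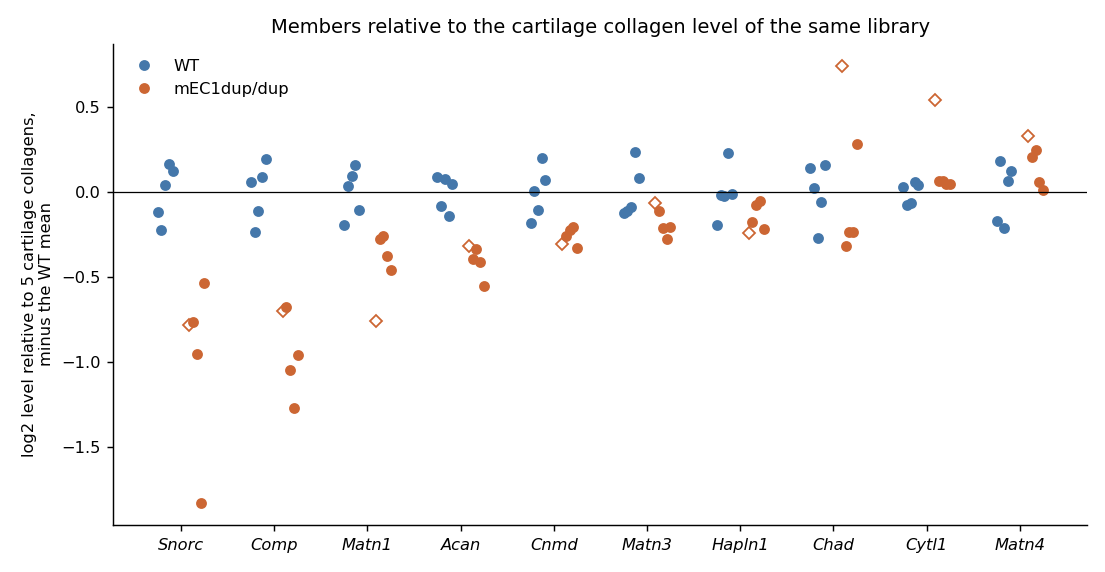
Log2 level of each gene relative to 5 cartilage collagens of the same library, minus the WT mean, for WT (blue) and *mEC1dup/dup* (orange, replicate 1 as an open diamond). The *mEC1dup/dup* points of *Snorc*, *Comp*, *Matn1*, *Acan* and *Cnmd* lie below all WT points, and those of *Matn4* and *Cytl1* at or above the WT mean.

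Promoters of the 10 genes were read from RefSeq, in the build GRCm38.p6, as the 250 bases before the annotated start, and 8 genes had an entry (9 promoters, since *Matn4* has 2). *Comp* and *Snorc*, the genes called lower on genotype alone, were without one, so what follows does not cover them. Shown are *Acan* (chr7:79052976-79053225, plus strand) and *Matn1* (chr4:130944135-130944384, plus strand), which fell against the collagen level, beside *Cytl1* (chr5:37735269-37735518, plus strand) and *Chad* (chr11:94564797-94565046, plus strand), which did not pass that test. Capitals mark matches to the letters searched on both strands, 5′ to 3′.
Acan: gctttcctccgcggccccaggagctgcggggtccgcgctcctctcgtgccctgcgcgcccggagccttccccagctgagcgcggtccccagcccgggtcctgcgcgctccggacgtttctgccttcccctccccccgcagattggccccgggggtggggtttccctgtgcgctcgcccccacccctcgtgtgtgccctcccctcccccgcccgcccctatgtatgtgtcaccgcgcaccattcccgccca
Matn1: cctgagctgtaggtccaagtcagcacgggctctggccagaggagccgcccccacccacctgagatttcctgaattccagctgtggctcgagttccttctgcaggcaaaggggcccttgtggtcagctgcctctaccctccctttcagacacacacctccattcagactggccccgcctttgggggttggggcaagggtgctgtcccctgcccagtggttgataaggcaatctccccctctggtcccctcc
Cytl1: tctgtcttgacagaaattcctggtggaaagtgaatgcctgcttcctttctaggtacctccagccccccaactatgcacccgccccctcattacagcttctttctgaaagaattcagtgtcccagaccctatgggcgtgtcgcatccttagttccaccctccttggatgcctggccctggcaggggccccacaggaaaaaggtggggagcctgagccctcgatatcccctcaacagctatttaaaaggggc
Chad: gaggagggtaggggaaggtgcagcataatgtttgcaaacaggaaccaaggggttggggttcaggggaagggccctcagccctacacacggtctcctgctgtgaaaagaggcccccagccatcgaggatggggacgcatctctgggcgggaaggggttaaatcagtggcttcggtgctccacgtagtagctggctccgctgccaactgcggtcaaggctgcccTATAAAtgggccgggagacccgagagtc
The letters CAAGTG, a core bound by HMX homeodomain factors, were in 0 of the 9 promoters and in 11.6% of 32851 mouse promoters of the same length. The letters ACAAT, a core of SOX factor sites, were in 1 of the 9, that of *Hapln1*, 245 bases before its start, and in 27.7% of all promoters. The TATA box letters TATAAA were in 1 of the 9, that of *Chad*, 23 bases before its start, and in 12.4% of all promoters. GC content of the windows shown was 74.4% for *Acan*, 62.0% for *Matn1*, 54.8% for *Cytl1* and 60.4% for *Chad*. No match says only that these letters are not in this window.

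Genes with which these products work were read from lists in the same fit. None of 8 cartilage collagens was called in edgeR, and 0 were lower or higher at an unadjusted p of at most 0.05. Their median log2 fold change was -0.21, and -0.033 without *mEC1dup/dup* replicate 1. None of 10 chondrogenic transcription factors was called (median 0.11, with 1 higher at an unadjusted p of at most 0.05), whereas 1 of them, *Foxc1*, was called higher without *mEC1dup/dup* replicate 1 (0.36, SE 0.08, adjusted p = 0.0421 in edgeR). *Sox9*, the master regulator of cartilage matrix genes, had a log2 fold change of 0.19 (SE 0.14, adjusted p = 0.572 in edgeR). In the fit with the collagen level it was higher, at 0.37 (SE 0.06, adjusted p = 0.00614 in edgeR), as was *Foxc1* (0.37, SE 0.09, adjusted p = 0.0458 in edgeR), and both were chosen after their values were seen. The 5 collagens that make up that level are not read in this fit, since the level contains them.

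Among 12 tested genes for other non-collagen cartilage matrix proteins, 2 were lower and 0 higher, with a median log2 fold change of -0.46. They were the small leucine-rich proteoglycan genes *Fmod* (fibromodulin, -0.46, SE 0.08, adjusted p = 0.0101 in edgeR) and *Prelp* (-0.50, SE 0.12, adjusted p = 0.0483 in edgeR). *Clec3a*, coding for a C-type lectin of cartilage, gave -1.24 (adjusted p = 0.0486 in edgeR) but was under the minimum CPM. Without *mEC1dup/dup* replicate 1, *Fmod* alone of this list was called. With the collagen level as covariate, edgeR called *Otor* (-0.37, adjusted p = 0.0313), *Prelp* (-0.36, adjusted p = 0.0434) and *Fmod* (-0.42, adjusted p = 0.0181) lower. No other gene of this list was called in that fit, beside 2.21% of all tested genes called lower. The same genes were called when *mEC1dup/dup* replicate 1 was also left out, with adjusted p of 0.0374, 0.0446 and 0.0223 in edgeR. Relatives of the 10 genes in other tissues included 3 lower genes of 11 tested: *Thbs2*, a thrombospondin like *Comp* (-0.43, SE 0.07, adjusted p = 0.0117 in edgeR), *Tnmd*, the tendon relative of *Cnmd* (-0.60, SE 0.11, adjusted p = 0.0124 in edgeR), and the widely expressed matrilin *Matn2* (-0.33, SE 0.08, adjusted p = 0.0363 in edgeR). *Thbs4*, the closest thrombospondin relative of *Comp* in tendon, had a log2 fold change of 0.29 (SE 0.09, adjusted p = 0.138 in edgeR).

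Of 22 tested genes that make the chondroitin sulfate chains carried by aggrecan and the *Snorc* protein, 0 were called in edgeR (median -0.09, and -0.051 without *mEC1dup/dup* replicate 1), with 5 lower and 0 higher at an unadjusted p of at most 0.05, beside 9.08% and 7.1% of all tested genes. DESeq2 called 2 of them lower (*Csgalnact1* and *Chst12*), limma-voom 0, and limma-voom with sample quality weights 3. These tools called 3.1%, 1.68% and 3.56% of all tested genes lower, in that order. Of 7 tested genes of hyaluronan turnover, 0 were called in edgeR, with 2 lower and 2 higher at an unadjusted p of at most 0.05. DESeq2 called 1 lower and 1 higher, limma-voom 0, and limma-voom with sample quality weights 2 lower and 1 higher. Over all 16426 tested genes, the higher calls of these tools were 321, 119 and 309. *Cd44*, the hyaluronan receptor, was the lower gene with DESeq2, with the collagen level as covariate and, at -0.47 (SE 0.08, adjusted p = 0.00981 in edgeR), without *mEC1dup/dup* replicate 1. Of 7 ADAMTS proteases that cleave aggrecan or *Comp* protein and their relatives, *Adamts12* was lower (-0.33, SE 0.07, adjusted p = 0.0295 in edgeR), and 0 were higher.

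Some markers of other cell types, mostly of tendon, muscle and epidermis, were lower as well. Their part in the results for *Comp* and *Snorc* was not tested. *Comp* is also expressed in tendon. Of 8 tendon and perimysial markers, 4 were lower and 0 higher in edgeR, among them *Kera* (-0.82, SE 0.14, adjusted p = 0.0101) and *Fmod*, whereas *Scx*, the defining tendon transcription factor, gave 0.24 (SE 0.07, adjusted p = 0.0758). Of the 8, 3 were lower without *mEC1dup/dup* replicate 1, since *C1qtnf3* lost its call (adjusted p = 0.055 in edgeR), and *Scx* was called higher at 0.28 (SE 0.07, adjusted p = 0.0484 in edgeR). The summed level of this list was 347.0 to 430.6 CPM in WT and 305.6 to 339.5 CPM in *mEC1dup/dup*. Of 9 muscle markers 6 were lower (2230.3 to 3394 CPM in WT and 1381 to 2197 CPM in *mEC1dup/dup*), and of 7 epidermis markers 6 were lower (695 to 1421 CPM and 468 to 651 CPM), and without *mEC1dup/dup* replicate 1 these counts were 7 and 7. *mEC1dup/dup* replicate 1, the library with the least cartilage RNA, had the highest muscle and epidermis sums of the *mEC1dup/dup* libraries. Of 6 fibroblast markers 1 was lower (*Lum*), and 2 without *mEC1dup/dup* replicate 1 (*Dcn* and *Lum*), of 4 endothelial markers 0 were called, and of 6 tested markers of hypertrophic cartilage and bone 0 were called. No gene of these lists was at 0 counts in every library.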

How the data were processed

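Paired-end reads were trimmed with fastp, aligned to GRCm39 with STAR and counted per gene with featureCounts by the authors, who deposited raw counts without normalization. The annotation release, the use of strand and the handling of reads with several matches are not given in the sources used here. Symbols, positions and exonic lengths came from GENCODE for GRCm39 and matched 49355 of 53465 genes. Counts were filtered with filterByExpr, normalized by TMM and fitted with edgeR version 4.0.16 (estimateDisp, glmQLFit, glmQLFTest) in R version 4.3.3, over all 10 libraries with genotype as the term and Benjamini-Hochberg adjustment over 16426 genes. SEs are the log2 fold change divided by the square root of F. Log2 CPM of single libraries used a prior count of 2. Alternatives used limma version 3.58.1 and DESeq2 version 1.42.0, other scalings, filters and thresholds, the covariates named in the text, the replicate number as a block, and each library left out in turn. The fits that leave out *mEC1dup/dup* replicate 1 together with the collagen covariate, the list counts and the levels relative to collagens without it, were added after seeing the data. The 10 genes and all lists were chosen with earlier results of these data known. Other genes are named when they had the smallest p of the called genes of a list (at most 2 each way), or were closest to *Comp* or to the other 9 genes by Pearson's r. *Clec3a*, *Otor*, *C1qtnf3*, *Scx*, *Thbs4*, *Matn2*, *Sox9*, *Foxc1*, *Cd44*, *Dcn* and the genes called by other tools were named after their values were seen. The edgeR fit on genotype alone was tested on counts simulated with the same dispersion for all genes and no variation shared between genes. The permutation test was checked on made-up values. The other steps were not tested in this way. Replicates were separate embryos, and the study states that siblings from separate litters were used but does not tie libraries to litters. Figures were drawn with matplotlib version 3.10.9.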

Additional observations from a re-analysis of the deposited data

Results flagged for a closer look

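Within the 10 genes, 20 sets of 5 libraries (each gene in each genotype) were searched for a library far from the rest by Dixon's test at 95%, of which about 1 in 20 is marked by chance, and 1 was found. *Comp* in WT replicate 3 was at 17.6 CPM, above the other WT libraries by 0.850 of the whole WT range. This library was also the highest in cartilage collagen level (10.5 in log2 CPM) and for 9 of the 10 genes in WT, all but *Matn4*. Without it, the log2 fold change of *Comp* stayed past the test.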

How the results depend on the processing

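*Snorc*, with 10 to 76 counts per library, had the fewest counts of the 10 genes. *Comp* had a negative log2 fold change in all 23 settings and was called in 21, and *Snorc* in 18. The count of 2 lower genes became 4 with the collagen level as covariate, also without *mEC1dup/dup* replicate 1, 1 at an adjusted p of at most 0.01, and 1 to 2 when a library was left out. It became 0 with *Xist* or the globin share as covariate, where *Comp* was at -1.23 and -1.05. Leaving out a library gave -1.38 to -1.08 for *Comp* (adjusted p 0.00386 to 0.0286 in edgeR), and -0.99 to -0.84 against the collagens. The sign turned for *Acan* (0.11), *Chad* (0.68) and *Cytl1* (0.33) with the globin share, for *Chad* with *Xist* (0.0091), for *Matn4* (0.11) and *Cytl1* (0.046) with the collagen level, and for *Matn4* (0.11) and *Cytl1* (0.047) with the collagen level and *mEC1dup/dup* replicate 1 left out. For *Matn4* it turned without *mEC1dup/dup* replicate 1, with a range of -0.22 to 0.042 over the libraries left out. The cause was not tested. Lower calls over all genes were 297, and 510 with the Wald test of DESeq2, 584 with limma-voom and quality weights, 487 with the block, 1 with *Xist*, 0 with the globin share, and 120 to 476 with a library left out.

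Blocking on replicate number, edgeR called 5 genes lower: *Acan* (-0.73, adjusted p = 0.046), *Comp* (-1.27, adjusted p = 0.00287), *Matn1* (-0.75, adjusted p = 0.0434), *Cnmd* (-0.60, adjusted p = 0.0342) and *Snorc*. Of all tested genes, 2.96% were called lower with the block, against 1.81% in the main fit. Deviations of same-numbered libraries had correlations of -0.0558, 0.140, 0.177, 0.345 and 0.205 for numbers 1 to 5, a mean of 0.162. The mean for libraries of different numbers, -0.0403, is no separate comparison, since deviations from the genotype means cancel out within each genotype. As 1 pair was under 0.1, the numbers were not taken as a pairing, which does not exclude shared litters. Of the libraries, 2 of 5 WT and 2 of 5 *mEC1dup/dup* libraries were closest to their own number. Paired by number, the difference of *Comp* against the collagens was -0.93, with an exact sign-flip permutation p of 0.0625, the smallest that test allows.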
